A study of Mus musculus with 4 samples.

Results

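The genes described here are the Hox genes of the HoxA, HoxB, HoxC and HoxD clusters. They were taken as every probe on the array whose platform gene symbol is one of 38 named Hox genes, whether or not the probe was detected. The rule gave 57 probes of 45281 on the array, and 13 of the 38 genes had more than 1 probe. The cells belonged to E14, an established mouse embryonic stem cell line, grown in serum with LIF. They were exposed for 2 hours to all-trans retinoic acid (ATRA), with 2 arrays, or to its vehicle DMSO, with 2 arrays. The treatment label names DMSO for the control arrays, while the source label calls the same cells untreated. The titles of the control arrays read wt, the usual short form of wild type, and those of the treated arrays read ATRA. No genetic change is named for either group, and no dose of ATRA is stated in the labels.

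Hox genes encode homeodomain transcription factors that set position along the body axis. They lie in clusters in which gene order matches the order of expression along that axis, and genes at the same place in different clusters form a paralog group. Anterior genes, with low paralog numbers, are switched on first and respond to retinoic acid, whose receptors bind response elements in and around the clusters. In embryonic stem cells the clusters are covered by Polycomb proteins and are mostly silent.

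The values are deposited intensities on a linear scale in arbitrary units, and a probe counts as detected on an array when its detection p is under 0.05. The lowest intensity of a detected probe was 104.9 to 106.3 on the ATRA arrays and 104.4 to 105.3 on the DMSO arrays. The arrays had 40.1% to 42.3% of all probes detected, and the deposited intensities were already on a common scale, with medians of 99.74 to 99.76. All 10 stem cell marker genes examined, Pou5f1 and Nanog among them, were detected on every array, and 2 of the 10 fell by their brightest probe. Sox2 had 474.3 and 471.2 with ATRA, against 603.8 and 587.5 with DMSO (limma adjusted p = 0.019). Its other kept probe had a change of -0.23 and did not pass (limma adjusted p = 0.51). Zfp42 had 3977 and 4312 with ATRA, against 5475 and 5407 with DMSO (limma adjusted p = 0.0041). Of 5 primitive endoderm markers 2 were tested and 1 rose, Gata6, with 130.5 and 116.7 with ATRA, against 100 and 107.8 with DMSO (limma adjusted p = 0.027). The part of these marker changes in the Hox values was not tested. Of 10 fibroblast markers, 5 were detected on every array and Col1a2, Dcn, Lum, Postn and Pdgfra on none. The summed intensity of the brightest probes of these 10 genes was 1133 and 1103 on the ATRA arrays and 1122 and 1117 on the DMSO arrays. Feeder fibroblasts carry Hox transcripts, and the part of such cells in the Hox signals was not tested. In RNA from a whole culture, a few cells with much of a transcript and many cells with little of it cannot be told apart.

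Promoter windows from RefSeq, on build GRCm38.p6, were at hand for 22 of the 38 genes, as 24 windows of 300 bases that run from 250 before to 50 after a start site. A few are shown because the results turn on the anterior genes, and the promoter is the sequence from which the measured transcript starts. Hoxb1 specifies hindbrain segment identity, Hoxb4 is known for its part in blood stem cells and Hoxa5 in lung and rib development, and Hoxd10, a gene of the hind limb and lumbar cord, is given beside them as a posterior gene detected on all 4 arrays. The windows are chr11:96365508-96365807 on the plus strand for Hoxb1, chr11:96318017-96318316 on the plus strand for Hoxb4, chr6:52204538-52204837 on the minus strand for Hoxa5 and chr2:74691641-74691940 on the plus strand for Hoxd10. Capitals mark half-sites of the retinoic acid receptor (AGGTCA as the usual form, with AGTTCA as a variant, GGGTCA as another variant and also GGTTCA) and a core of joint PBX and Hox binding (TGATNNAT), each on either strand; no marked matches overlap.
Hoxb1: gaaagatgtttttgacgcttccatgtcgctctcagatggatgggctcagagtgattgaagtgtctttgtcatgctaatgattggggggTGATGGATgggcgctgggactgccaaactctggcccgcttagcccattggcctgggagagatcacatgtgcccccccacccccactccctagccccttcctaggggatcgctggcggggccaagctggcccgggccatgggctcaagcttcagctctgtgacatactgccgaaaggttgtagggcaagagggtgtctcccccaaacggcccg
Hoxb4: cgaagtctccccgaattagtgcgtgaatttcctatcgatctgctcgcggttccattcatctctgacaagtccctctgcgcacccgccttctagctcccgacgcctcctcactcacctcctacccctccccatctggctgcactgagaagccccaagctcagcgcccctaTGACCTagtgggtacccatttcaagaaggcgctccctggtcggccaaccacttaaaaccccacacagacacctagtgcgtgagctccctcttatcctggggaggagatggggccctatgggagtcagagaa
Hoxa5: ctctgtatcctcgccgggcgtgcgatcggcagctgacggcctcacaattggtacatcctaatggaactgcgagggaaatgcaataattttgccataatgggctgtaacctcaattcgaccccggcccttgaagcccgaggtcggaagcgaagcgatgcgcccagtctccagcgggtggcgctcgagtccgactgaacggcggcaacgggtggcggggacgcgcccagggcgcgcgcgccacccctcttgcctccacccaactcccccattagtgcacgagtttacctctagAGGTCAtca
Hoxd10: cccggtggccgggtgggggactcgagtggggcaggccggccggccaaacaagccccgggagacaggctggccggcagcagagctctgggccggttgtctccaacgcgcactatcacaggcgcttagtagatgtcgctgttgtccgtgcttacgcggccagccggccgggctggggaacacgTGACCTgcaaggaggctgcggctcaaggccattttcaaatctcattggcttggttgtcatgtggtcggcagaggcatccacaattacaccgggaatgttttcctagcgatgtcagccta

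A half-site stood in 11 of the 24 Hox windows (45.8%) and in 43.7% of the 32851 windows of all genes, so the Hox share was near that of other promoters. A pair of half-sites in direct repeat, the usual form of a retinoic acid response element, was searched on both strands with 1, 2 or 5 bases between the half-sites. It was in 0 of the Hox windows for each spacing, and in 0.222%, 0.268% and 0.0974% of all windows. These letters are therefore not in these windows, which says nothing of elements elsewhere in the clusters. The TGATNNAT core was in 4 Hox windows (16.7%), those of Hoxa2, Hoxb1, Hoxb8 and 1 of the Hoxd11 windows, and in 8.85% of all windows. Hox windows held a median of 14.5 CpG dinucleotides, with a range of 4 to 45, against a median of 7 in all windows.

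Most Hox probes were below the detection limit in both groups. On the ATRA arrays 16 and 18 of the 57 probes were detected, and on the DMSO arrays 17 and 16, which is 28.1% to 31.6% of Hox probes. Of the 57 probes, 33 were detected on no array and 12 on all 4. For 18 genes no probe was detected on any array: Hoxa6, Hoxa10, Hoxa11, Hoxb1, Hoxb3, Hoxb6, Hoxb8, Hoxb9, Hoxb13, Hoxc5, Hoxc11, Hoxc12, Hoxd1, Hoxd3, Hoxd4, Hoxd11, Hoxd12 and Hoxd13. The 33 undetected probes lay between 83.7 and 104.9, with detection p of 0.057 to 0.99. The highest intensity of any Hox probe was 145.2.

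**Figure D1:**
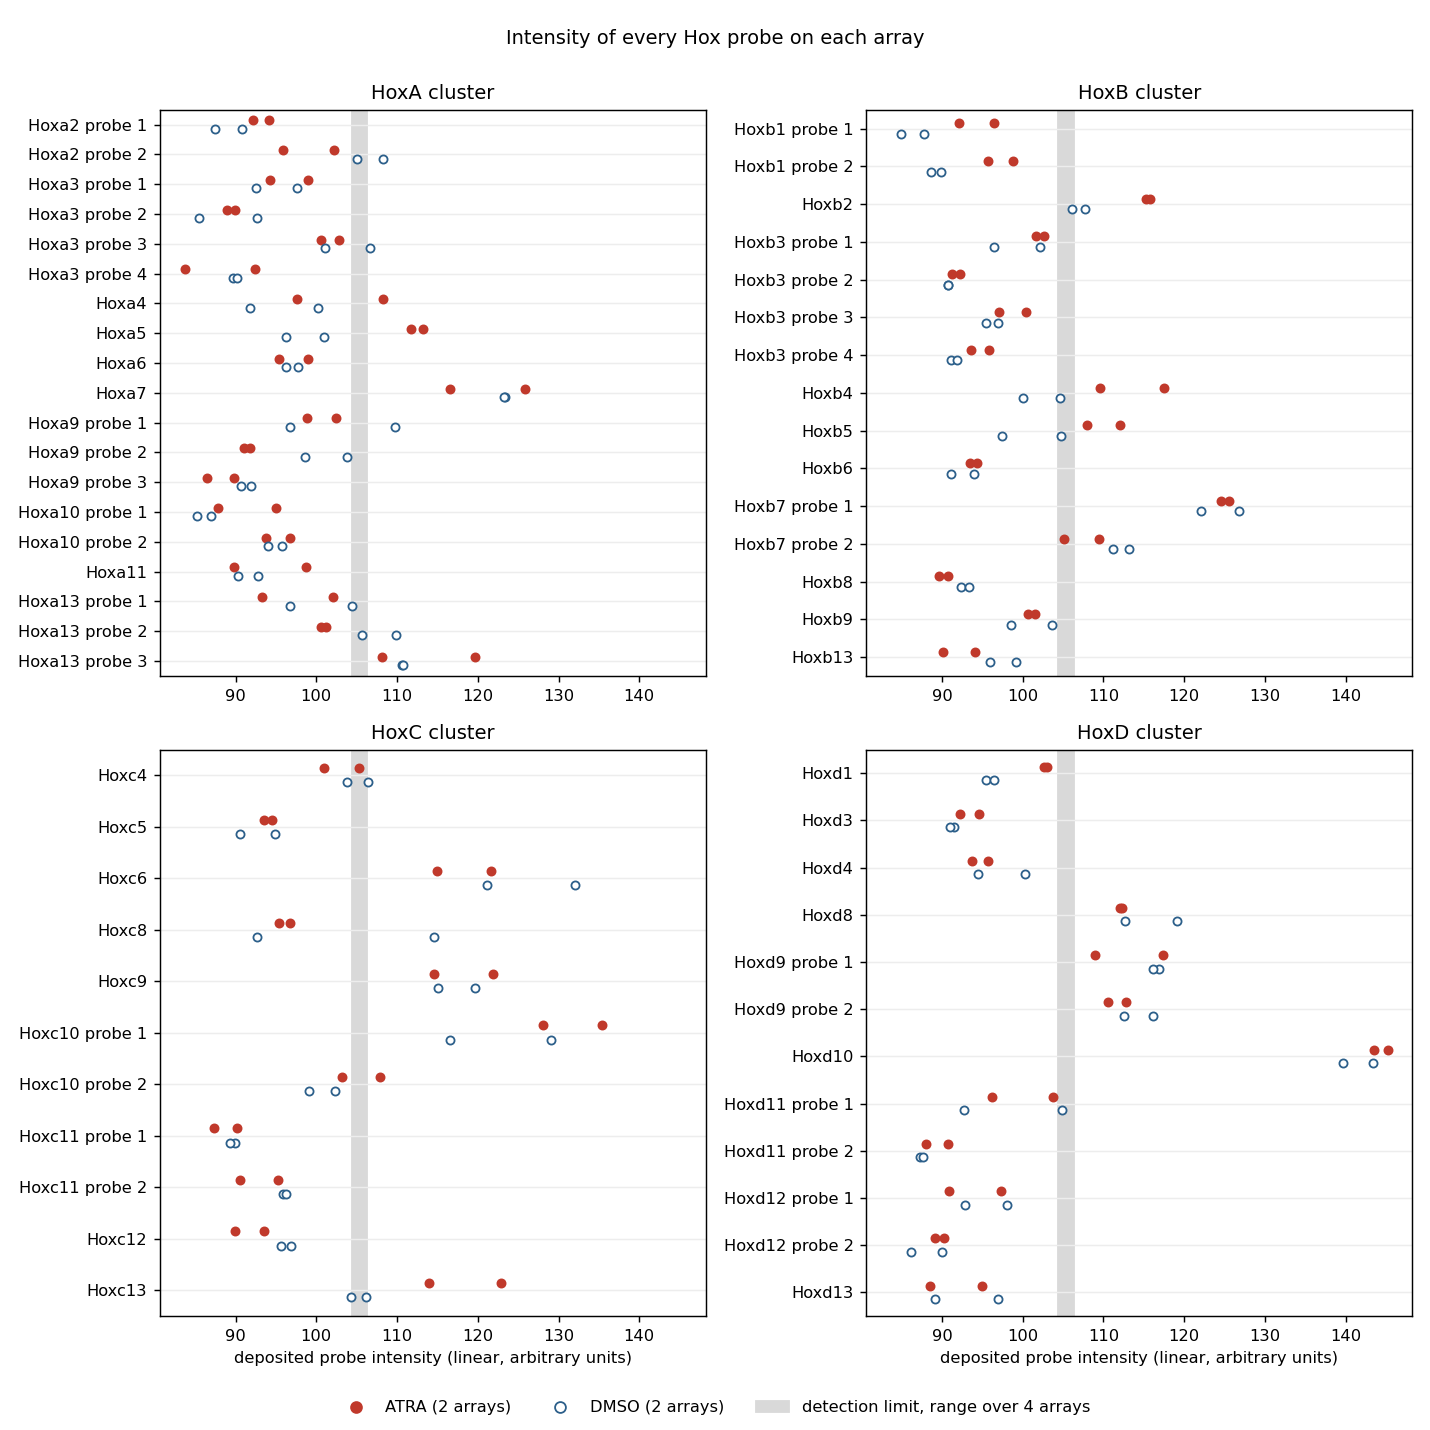
Deposited intensity (linear, arbitrary units) of each of the 57 Hox probes, in 1 panel per cluster with paralog groups from low at the top to high at the bottom. Filled points are the 2 ATRA arrays, open points the 2 DMSO arrays, and the grey band spans the lowest intensity of a detected probe on the 4 arrays (104.4 to 106.3). Most points lie left of the band, and in the upper rows of HoxB the filled points lie right of the open ones.

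The genes that were detected on all 4 arrays were mostly not the anterior ones. Among paralog groups 6 to 13, 12 and 13 of 35 probes were detected on the ATRA arrays and 12 and 15 on the DMSO arrays. Among groups 1 to 5 it was 4 and 5 of 22 on the ATRA arrays and 5 and 1 on the DMSO arrays. Detection therefore did not follow the anterior to posterior order. Across genes the intensities themselves cannot be ranked, since probes differ in how they bind.

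The limma test took in probes with detection on 2 or more arrays of any group, and so kept 19112 probes, of which 302 (1.58%) had an adjusted p under 0.05 (240, or 1.26%, higher with ATRA and 62, or 0.324%, lower). It kept 17 Hox probes of 14 genes, 4 of groups 1 to 5 and 13 of groups 6 to 13. None of the 17 passed (0 of 17, lowest limma adjusted p = 0.117), and 4 had an unadjusted p under 0.05, against 11.6% of kept probes. Of the 17, 3 were detected in 1 group alone (Hoxa5, Hoxb5 and a Hoxa13 probe), and the filter let them in through that group. With no filter, 0 of 57 Hox probes passed, against 0.552% of all probes. In that fit 9 Hox probes had an unadjusted p under 0.05 (8 higher and 1 lower with ATRA), against 7.62% of all probes.

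Although no single Hox gene passed, the anterior HoxB genes stood on one side. The HoxB cluster has 9 probes for groups 1 to 5, those of Hoxb1 to Hoxb5. On 8 of the 9, covering all 5 genes, both ATRA arrays lay above both DMSO arrays, and on the remaining Hoxb3 probe the groups overlapped. Over all probes of the array this order was found for 17.8%, and the reverse order for 18.6%. Among probes detected on no array it was 16.6% and 16.5%. Of the 6 probes of HoxB groups 6 to 13, 0 had both ATRA arrays above and 3 had both below both DMSO arrays. The counts use every probe of each gene, so the filter on dim probes did not choose them. This set and this order were, however, picked after the values were seen. Of the 9 probes, 6 were detected on no array, namely the 2 of Hoxb1 and the 4 of Hoxb3. With no second quantile step, the count with both ATRA arrays above was 6 of 9. The counts carry no test, and the difference between clusters or between anterior and posterior genes was not tested either.

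**Figure D2:**
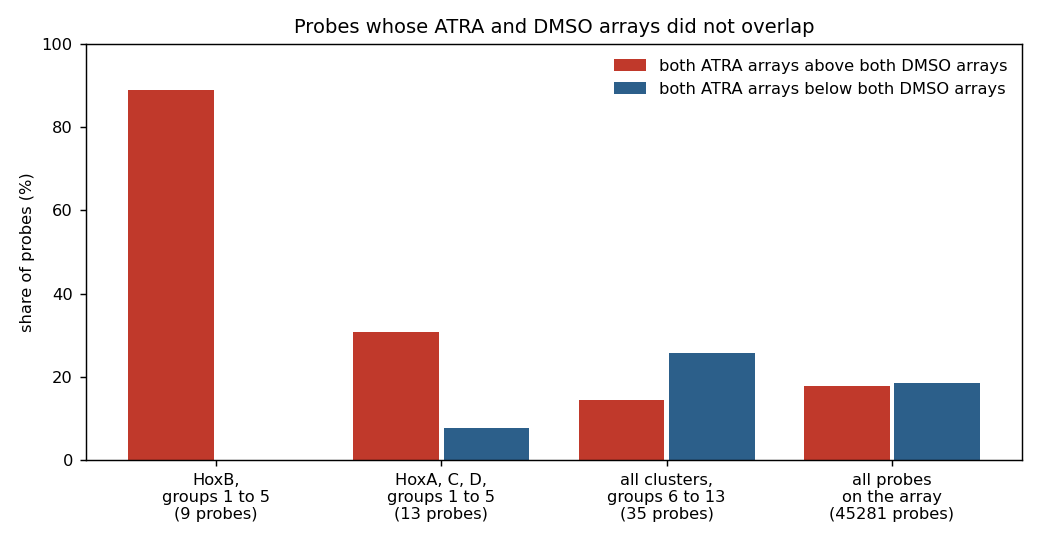
Share of probes (%, vertical axis) on which both ATRA arrays lay above (red) or below (blue) both DMSO arrays, for 3 sets of Hox probes and for all 45281 probes. In HoxB groups 1 to 5 the upper share is 88.9% and the lower 0%, against 17.8% and 18.6% for all probes.

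Hoxb1 is the earliest HoxB gene in the hindbrain and a known retinoic acid target. Its first probe had intensities of 92.1 and 96.4 with ATRA, against 84.9 and 87.8 with DMSO. Its other probe had 98.8 and 95.7 with ATRA, against 89.9 and 88.6 with DMSO. Both probes placed the ATRA arrays higher with no overlap, but neither was detected on any array (detection p of 0.172 to 0.517 with ATRA and 0.7 to 0.969 with DMSO), so no fold is given.

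Hoxb2, which acts with Hoxb1 in the hindbrain and facial motor neurons, was detected on all 4 arrays. It had 115.8 and 115.3 with ATRA, against 107.7 and 106.1 with DMSO. The replicates were close and the groups did not overlap. The mean log2 intensity after background correction was 5.24 ± 0.02 with ATRA and 4.88 ± 0.05 with DMSO (SD, n = 2). The change was 0.36 on the log2 scale (SE 0.16, 95% interval 0.02 to 0.70), and it did not pass (limma adjusted p = 0.386).

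Hoxb3, a gene of the hindbrain and pharyngeal arches, had 4 probes, detected on 0 arrays. Their intensities were 91.3 to 102.6 with ATRA and 90.7 to 102.2 with DMSO. On 3 of the 4 the ATRA arrays lay above the DMSO arrays, by small margins. The brightest had 101.6 and 102.6 with ATRA, against 96.4 and 102.2 with DMSO, and overlapped. The dimmest had 92.2 and 91.3 with ATRA, against 90.7 and 90.8 with DMSO.

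Hoxb4 had 109.6 and 117.5 with ATRA, against 104.6 and 100 with DMSO. It was detected on both ATRA arrays and on 1 DMSO array, and the groups did not overlap. Its change was 0.47 (SE 0.18, 95% interval 0.11 to 0.84), a 1.39-fold difference set against values near background (limma adjusted p = 0.254).

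Hoxb5, of the trunk and vagal neural crest, had 108.0 and 112.1 with ATRA, against 97.5 and 104.8 with DMSO. It was detected on both ATRA arrays and on 0 DMSO arrays, so its difference has only a bound, at least 1.17-fold higher on the background-corrected scale (limma adjusted p = 0.432). It too passed the filter through its ATRA arrays alone. For such bounds, all given on the background-corrected scale, an array of the undetected group enters at the lowest signal of any detected probe on it. Its own signal is used where that is larger. The bounds compare group means and make no allowance for the spread between arrays.

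In the other clusters the anterior genes gave a mixed picture. Of the 13 probes of HoxA, HoxC and HoxD groups 1 to 5, 4 had both ATRA arrays above both DMSO arrays and 1 had both below (30.8% and 7.69%). Over all probes these shares were 17.8% and 18.6%. Hoxa5 had 111.7 and 113.2 with ATRA, against 96.2 and 101.0 with DMSO. It was detected on both ATRA arrays and on 0 DMSO arrays, and was at least 1.26-fold higher on the background-corrected scale. The deposited intensities averaged 112.5 with ATRA and 98.59 with DMSO. It had the lowest limma adjusted p of the kept Hox probes, 0.117, but it passed the filter on dim probes through its ATRA arrays alone. With DMSO replicate 2 left out its adjusted p was 0.0446, and without DMSO replicate 1 it was 0.213.

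Hoxd1, which in mouse shapes sensory neurons, had 102.7 and 103.0 with ATRA, against 95.4 and 96.4 with DMSO. The groups did not overlap and no array reached detection (detection p of 0.068 to 0.301). Hoxd3, a gene of the upper neck vertebrae, had 92.2 and 94.6 with ATRA, against 91.5 and 91.0 with DMSO. It too was detected on no array, and its margin was under 1 unit.

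Hoxa2, the selector of the second pharyngeal arch, had a pair of probes that differed in direction. One had 94.1 and 92.1 with ATRA, against 87.4 and 90.8 with DMSO, and was detected on no array. The other had 95.9 and 102.2 with ATRA, against 108.3 and 105.0 with DMSO, where 1 DMSO array was detected. The direction of Hoxa2 is therefore unsettled. Hoxa4 overlapped between groups, with 97.6 and 108.3 with ATRA and 100.2 and 91.8 with DMSO, and only the ATRA replicate at 108.3 was detected.

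Hoxa3, a gene of thymus and parathyroid development, overlapped between groups on all 4 of its probes. Hoxc4, Hoxc5 and Hoxd4 overlapped too. Hoxc4 had 105.3 and 101.0 with ATRA, against 106.4 and 103.8 with DMSO, with the DMSO array at 106.4 detected. One Hoxa3 probe was likewise detected only on a DMSO array, at 106.7. HoxC had only these 2 probes in groups 1 to 5, and neither was separated by group.

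Over all 22 probes of groups 1 to 5, 12 had both ATRA arrays above and 1 had both below both DMSO arrays (54.5% and 4.55%). Over the 35 probes of groups 6 to 13 it was 5 and 9 (14.3% and 25.7%). For all probes of the array the shares were 17.8% and 18.6%. The median change with no filter on dim probes was 0.08 on the log2 scale for groups 1 to 5 and -0.03 for groups 6 to 13. For all probes it was -0.003. Array medians of these Hox probes had an SD between replicates of 0.024 (groups 1 to 5) and 0.054 (groups 6 to 13). The -0.03 was thus smaller in size than the spread between replicates. By cluster, the median for groups 1 to 5 was 0.16 in HoxB, 0.05 in HoxD, 0.02 in HoxA and -0.03 in HoxC. By paralog group, all 3 probes of group 1 (those of Hoxb1 and Hoxd1) had the ATRA arrays above. It was 2 of 3 in group 2 (with 1 below), 4 of 9 in group 3, 1 of 4 in group 4 and 2 of 3 in group 5. Most of these probes were undetected, so the medians describe differences of a few intensity units and not transcript folds.

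Within HoxB the change and the paralog number had a Spearman rank correlation of -0.68 over 15 probes of 10 genes. The change did not fall steadily from Hoxb1 on. With no filter it was highest for Hoxb4 (0.47) and Hoxb5 (0.38), above both Hoxb1 probes (0.16 and 0.20). The correlation was 0.01 over 19 probes in HoxA, 0.37 over 11 in HoxC, -0.08 over 12 in HoxD and -0.25 over all 57. These are descriptions across probes that share the same 4 arrays, and several probes share a gene.

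**Figure D3:**
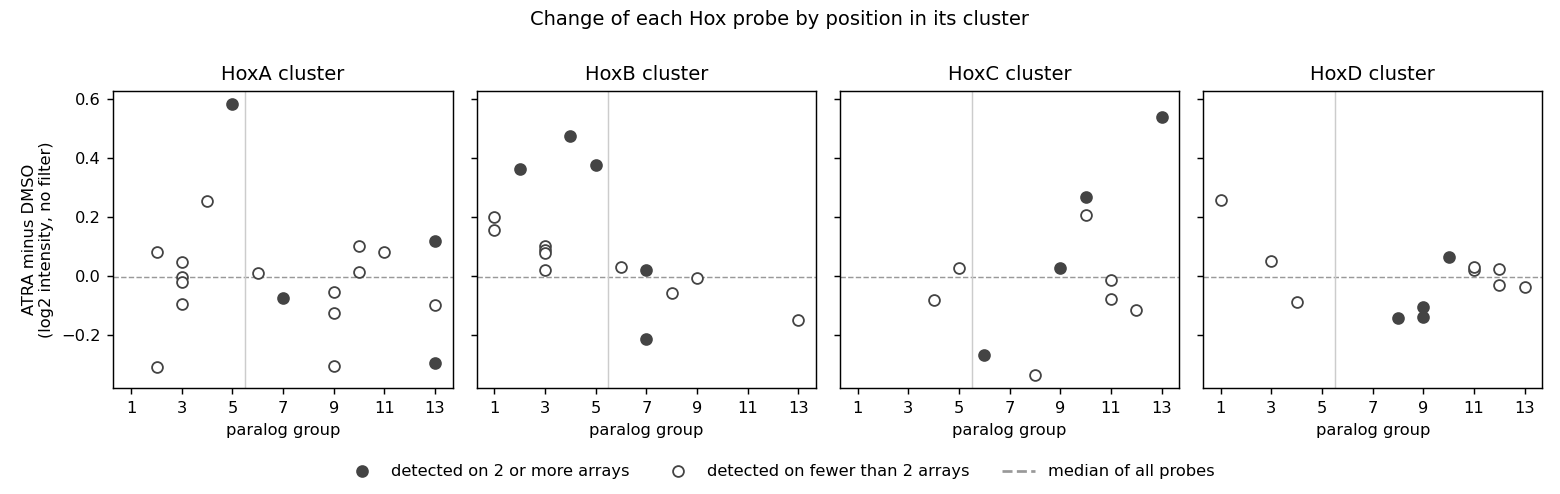
Change of each Hox probe (mean ATRA minus mean DMSO, log2 intensity, no filter) against its paralog group, in 1 panel per cluster. Filled points were detected on at least 2 arrays, open points on fewer, the dashed line is the median of all probes (-0.003) and the vertical line parts groups 1 to 5 from groups 6 to 13. All 9 HoxB points left of that line lie above 0, between 0.02 and 0.47.

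Among groups 6 to 13, Hoxc13 had the highest change. This gene of hair and nail formation had 114.0 and 122.9 with ATRA, against 104.3 and 106.1 with DMSO. It was detected on both ATRA arrays and on 1 DMSO array, and the groups did not overlap. The mean log2 intensity was 5.34 ± 0.23 with ATRA and 4.80 ± 0.06 with DMSO (SD, n = 2). Its change was 0.54 (SE 0.17, 95% interval 0.19 to 0.89), and it missed the threshold (limma adjusted p = 0.14). Without ATRA replicate 2 the change was 0.38 and without ATRA replicate 1 it was 0.70.

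The group 10 genes, which pattern the lumbar region, were the only posterior group in which all probes (5 of 5) had a change above 0. On 3 of the 5 the ATRA arrays lay above the DMSO arrays, against 17.8% of all probes. The margins were small, with lowest ATRA and highest DMSO values of 143.5 and 143.4 for Hoxd10. They were 103.2 and 102.3 for the dimmer Hoxc10 probe, and 87.77 and 86.95 for a Hoxa10 probe. This group was singled out after the values were seen. The brighter Hoxc10 probe had 135.4 and 128.1 with ATRA, against 116.6 and 129.1 with DMSO, and overlapped (change 0.27, 95% interval -0.05 to 0.59, limma adjusted p = 0.543). Its other probe had 103.2 and 107.9 with ATRA, against 102.3 and 99.1 with DMSO. Hoxd10 had 145.2 and 143.5 with ATRA, against 139.7 and 143.4 with DMSO, and a change of 0.06 (95% interval -0.20 to 0.33). Hoxa10, known for its part in the uterus, was undetected on all arrays with both probes.

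The remaining kept genes had intervals that included 0. Hoxa7 had 125.9 and 116.6 with ATRA, against 123.4 and 123.2 with DMSO (change -0.08, 95% interval -0.39 to 0.24). Hoxc9, which sets thoracic motor neuron columns, had 121.9 and 114.6 with ATRA, against 115.1 and 119.7 with DMSO (change 0.03, 95% interval -0.30 to 0.36). Both genes overlapped between groups.

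Some genes of groups 6 to 9 had lower means with ATRA, without passing. Hoxc6, a gene of the brachial cord, had 121.6 and 115.0 with ATRA, against 132.1 and 121.1 with DMSO (change -0.27, 95% interval -0.59 to 0.06). Hoxd8 had 112.3 and 112.0 with ATRA, against 119.1 and 112.7 with DMSO (change -0.14, 95% interval -0.48 to 0.19). The pair of Hoxd9 probes had changes of -0.14 and -0.11, with intensities of 108.9 to 117.4 with ATRA and 112.5 to 116.9 with DMSO. Hoxc6 and Hoxd9 overlapped between groups, and Hoxd8 was separated by under 1 unit.

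Different probes of 1 gene did not always agree. Of the 13 genes with several probes, 5 had changes of both signs: Hoxa2, Hoxa3, Hoxa13, Hoxb7 and Hoxd12. One Hoxb7 probe had 124.6 and 125.6 with ATRA, against 126.8 and 122.1 with DMSO (change 0.02). The other had 109.4 and 105.1 with ATRA, against 111.2 and 113.2 with DMSO (change -0.21, limma adjusted p = 0.701). Only the second was without overlap.

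Hoxa13, needed for digits and the genital tract, had 3 probes. One was detected on 0 ATRA arrays and both DMSO arrays, with 100.6 and 101.2 with ATRA, against 109.9 and 105.6 with DMSO. By its bound it was at least 1.07-fold lower with ATRA, while the 95% interval of the fit was -0.668 to 0.08 (limma adjusted p = 0.575). A second, detected on all 4 arrays, had 108.1 and 119.7 with ATRA, against 110.6 and 110.7 with DMSO, and overlapped (change 0.12, 95% interval -0.24 to 0.48, limma adjusted p = 0.874). The remaining probe was undetected.

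Hoxc8 and Hoxa9 show how far 1 array can move a dim probe. Hoxc8 had 96.7 and 95.4 with ATRA, against 92.7 and 114.6 with DMSO, and only the DMSO array at 114.6 was detected. With no filter and DMSO replicate 1 left out, it was called lower (change -0.75, limma adjusted p = 0.00755) on that 1 array. Hoxa9, a gene of blood progenitors and the trunk, had 3 probes. One had 91.0 and 91.8 with ATRA, against 103.8 and 98.6 with DMSO, undetected on all. It was called lower with no filter and without DMSO replicate 2 (change -0.41, limma adjusted p = 0.0209). Another Hoxa9 probe was detected on 1 DMSO array, at 109.7.

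**Figure D4:**
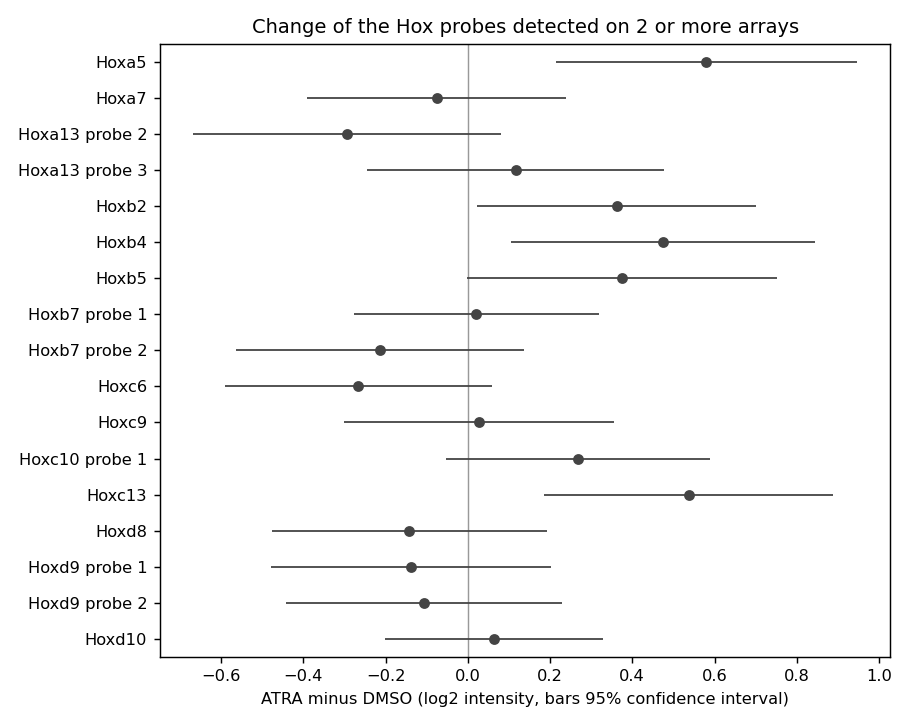
Change (ATRA minus DMSO, log2 intensity) of the 17 Hox probes detected on at least 2 arrays, with 95% confidence intervals from limma. Hoxa5, Hoxb2, Hoxb4 and Hoxc13 have intervals above 0 before any adjustment, and 0 of 17 passed after adjustment over all kept probes. Hoxa5 and Hoxb5 were undetected with DMSO and Hoxa13 probe 2 with ATRA, so these 3 are drawn against values below detection and show no measured size.

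The sizes of these changes rest on the background correction. Without it the changes of Hoxb2, Hoxb4 and Hoxc13 were 0.11, 0.15 and 0.17 in place of 0.36, 0.47 and 0.54, with the same direction.

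Genes that act with or on the Hox genes were mostly without a call. Of 11 Hox cofactors and Cdx genes on the array, 10 were tested, and 1 rose and 0 fell. The riser was Cdx1, a caudal homeobox activator of Hox genes, with 164.2 and 184.5 with ATRA, against 123.1 and 138.1 with DMSO (1.83-fold, limma adjusted p = 0.00083). This probe missed the threshold with no intensity trend in the fit (adjusted p = 0.09). A second Cdx1 probe had 171.3 and 167.9 with ATRA, against 107.6 and 108.9 with DMSO (limma adjusted p = 6.7e-08). Of 23 Polycomb and trithorax genes, which keep Hox clusters silent or active, 22 were tested and 0 rose or fell by their brightest probe, with a median change of -0.06. Both dimmer probes of Mtf2, a partner of the Polycomb complex that methylates histones, did rise, while its brightest did not pass (adjusted p = 0.26). One had 1021 and 1046 with ATRA, against 696.9 and 741.1 with DMSO (change 0.58, limma adjusted p = 0.00021). The other had a change of 0.57 (limma adjusted p = 0.0011).

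Of the 8 retinoic acid receptor and breakdown genes on the array, 7 were tested, and 1 rose and 0 fell. Cyp26a1, the retinoic acid degrading enzyme, had the largest rise of all kept probes (change 1.99), so it does not give the size of a typical call. It had 204.5 and 191.4 with ATRA, against 104.6 and 111.1 with DMSO (limma adjusted p = 2.6e-09). Rarb, a receptor and direct target, had 106.4 and 109.4 with ATRA, against 95.4 and 91.6 with DMSO, where it was undetected. It was at least 1.10-fold higher and missed the threshold (adjusted p = 0.19).

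Of 14 non-Hox genes in or next to the clusters, 11 were tested, and 0 rose and 1 fell. The gene that fell was Evx1, a homeobox gene that neighbours Hoxa13 in the RefSeq order of GRCm38.p6. It had 106.7 and 111.2 with ATRA, against 127.5 and 127.2 with DMSO, and fell by 0.66 on the log2 scale (SE 0.16, limma adjusted p = 0.024). It missed the threshold without ATRA replicate 1 (adjusted p = 0.34), with no intensity trend (adjusted p = 0.067), and with no filter on dim probes (adjusted p = 0.084). Skap2, beyond the anterior end of HoxA, had 1234 and 1245 with ATRA, against 1250 and 1239 with DMSO. Skap1, beyond the anterior end of HoxB, had a change of -0.18 (adjusted p = 0.79).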

How the data were processed

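RNA of E14 mouse embryonic stem cells was measured on 4 Illumina arrays labelled with Cy3, 2 with ATRA and 2 with DMSO. Per the submitters' processing notes, GenomeStudio was used, and no version or further step is given in the sources used here. The authors deposited a linear intensity for each probe and array. A detection p-value stands next to it, per the file headers. The table is named non-normalized, but intensities of the same rank differed between arrays by at most 0.228, as after quantile normalization. The values of the deposited series matrix equal these after subtraction of 93.51 to 93.52, with column medians of 6.22 to 6.24. It is linear and was used as an alternative. A shift common to most probes cannot be measured in such values.

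With limma 3.58.1 in R 4.3.3, neqc applied normexp with background estimated through detection p-values, then an offset of 16, quantile normalization and log2. Probes with a detection p under 0.05 on at least 2 of 4 arrays were kept (19112, or 42.2%). The difference of ATRA from DMSO was fitted with lmFit and moderated with eBayes (trend on), and p-values were adjusted by Benjamini-Hochberg over all kept probes at 0.05. All adjusted p-values are from this limma fit unless another setting is named. Being log2(value + offset) differences, changes understate dim probes. The fit was tested on simulated data. The arrays' small number limits precision, and an exact permutation test of 2 against 2 has 0.333 as its lowest p, and was left out. Nothing says that replicates were separate cultures, so p-values cover only array-to-array spread, possibly technical.

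Probes were named from the platform annotation (34885 with 1 symbol, 18 with several, 10378 unnamed here), with symbols checked by Entrez identifier against RefSeq genes of GRCm38.p6 (34807 matched, 0 renamed). Genes of other lists are given by their brightest kept probe. Named with statistics are all kept Hox probes, and with intensities the Hox genes detected on at least 1 array. Of the undetected genes, Hoxb1, Hoxb3, Hoxd1 and Hoxd3 and 1 probe each of Hoxa2 and Hoxa9 were singled out after their values were seen. So were Skap1 and Skap2. The members and lists were chosen with earlier results of these data known. Alternatives covered the background, offset, quantile step, source table, filters, trend, robust fit, replicate block and each array left out.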

Additional observations from a re-analysis of the deposited data

How the results depend on the processing

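The 2 arrays a group limit every call, and most Hox probes lie at background. The count of 0 kept Hox probes past the threshold held in every setting tried except without DMSO replicate 2, where it was 1 (Hoxa5), so that the range with an array left out was 0 to 1. With no filter it was 0 to 1 as well (1 without DMSO replicate 1, Hoxc8, and 1 without DMSO replicate 2, Hoxa9). The number of all kept probes past the threshold was 74 with no intensity trend (70 higher, 4 lower), 492 with the replicate block (339 higher, 153 lower), 133 to 956 with 1 array left out, and 250 to 305 otherwise. With a detection p under 0.01, 9 Hox probes were kept in place of 17. The median change of groups 1 to 5 was 0.039 with no background correction, 0.029 with an offset of 50, 0.106 with the series matrix values and 0.051 to 0.109 with an array left out. That of groups 6 to 13 was -0.036 to 0.034 with an array left out (above 0 without DMSO replicate 2). The number of probes of groups 1 to 5 with both ATRA arrays above both DMSO arrays, an alternative set chosen after seeing the data, was 12 of 22 under other backgrounds and offsets and 10 with no second quantile step, and for HoxB it was 8 and 6 of 9. With 1 array left out it was 13 to 16 and 8 to 9, where 32.1% to 35.2% of all probes had that order. Of 219 values of single kept Hox probes under other settings, 212 kept direction and side of the threshold and 6 turned direction. These were Hoxc9 at -0.101 and Hoxd9 at 0.032 without ATRA replicate 1, Hoxa7 at 0.079 and Hoxa13 at -0.11 without ATRA replicate 2, Hoxc9 at -0.057 without DMSO replicate 1 and Hoxb7 at -0.051 without DMSO replicate 2. With 1 array left out the ranges were -0.101 to 0.157 for Hoxc9, -0.308 to 0.032 for Hoxd9, -0.229 to 0.079 for Hoxa7, -0.11 to 0.345 for Hoxa13 and -0.051 to 0.093 for Hoxb7. The cause was not tested. The labels number the replicates alike, and deviations of same-numbered arrays correlated with r = -0.0028. A single correlation over all kept probes cannot tell whether same-numbered arrays were paired. With the replicate block 0 Hox probes passed (Hoxa5 adjusted p = 0.0722).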
